A study of Mus musculus with 5 samples.

Results

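The genes described here encode 10 proteins that take part in moving ions, water and bicarbonate across the colon epithelium, the carbonic anhydrases among them as enzymes. Their levels were read from bulk RNA sequencing of cultured mouse colon spheroids. They were chosen by name (Slc26a3, Car1, Car2, Car4, Aqp8, Slc9a3, Slc20a1, Cftr, Scnn1a and Slc12a2), not by a rule on their values, although earlier results of these data were known. These genes make up 10 of the 32793 gene rows of the deposited tables. Spheroids are three-dimensional epithelial cultures. The study compared 2 libraries from mutant mice, whose Notch1DD and Notch2DD alleles encode receptors that cannot dimerize (the NDD group, titled RA by the submitters), with 3 libraries from wild-type mice (WT). Both groups were of a mixed background that was mainly C57Bl6 with a part of FVB, and the labels name no treatment for either. Age, sex and the number of mice behind each culture are not given in the sources used here, so the p-values measure the spread between these libraries, which may be technical in part.

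The colon recovers salt and water from its contents. Surface colonocytes take up sodium chloride by pairing a sodium/proton exchanger, NHE3 (Slc9a3), with a chloride/bicarbonate exchanger, DRA (Slc26a3), and carbonic anhydrases supply the protons and bicarbonate that both exchangers trade. The epithelial sodium channel adds a second, electrogenic route for sodium, water follows the absorbed salt, and chloride is secreted by crypt cells that load it through NKCC1 (Slc12a2) and release it through the channel CFTR (Cftr). Notch signalling is known in the intestine for favouring absorptive over secretory fates.

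With edgeR no member passed the test between genotypes, which 0.0889% of all tested genes did. DESeq2 called 1 member, Slc20a1, and 2.64% of all tested genes. In both NDD libraries 5 of the 10 members were higher than in every WT library, as were 15.8% of all tested genes. These were Slc26a3, Slc9a3, Aqp8, Car4 and Slc20a1. For the first 4 of these the fitted difference was 1.52 to 2.00 on the log2 scale, but the WT libraries themselves spanned 5.62-fold to 20.4-fold, with the lowest value always in WT replicate 3. Car1, Car2, Scnn1a, Cftr and Slc12a2 overlapped between the genotypes.

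Total estimated counts were 19192389 to 23064000 per library, and 13501 genes, all 10 members included, had enough counts to be tested. The libraries held colon epithelium: all 12 colon epithelium markers were present, with summed levels of 14716 to 16543 TPM in NDD and 14466 to 15715 TPM in WT, where TPM is a transcript abundance corrected for length and scaled to the same total in every library. The small intestine markers summed to 7.36 to 14.4 TPM, with Apoa4 and Fabp1 at a count of 0 in all libraries. Summed levels in NDD and WT were 9.95 to 10.8 and 5.34 to 11.2 TPM for fibroblast markers (Lum at 0), 0.85 to 2.96 and 0.65 to 1.13 TPM for endothelium (Kdr and Cldn5 at 0), and 63.1 to 77.5 and 76.4 to 189 TPM for immune markers (Ptprc at most 0.03 TPM, and Cd14, which epithelium also makes, at 59.8 to 181 TPM). They were 2558 to 2618 and 1714 to 2153 TPM for goblet markers, 117 to 150 and 123 to 192 TPM for enteroendocrine markers, 1.36 to 2.37 and 0.81 to 1.33 TPM for tuft markers (Rgs13 and Il25 at 0), and 285 to 341 and 291 to 354 TPM for stem markers (Olfm4 at 0). NDD replicate 2 correlated least with the other libraries (Spearman's rho of log2 CPM 0.939 to 0.966 over the tested genes, against 0.973 to 0.987 among the remaining pairs).

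The apical exchangers of electroneutral salt absorption are described first. Slc26a3 (Entrez gene 13487, chr12:31433142-31473922 in mm10) was at 98.9 and 154 TPM in NDD replicates 1 and 2 and at 71.3, 35.4 and 12.3 TPM in WT replicates 1, 2 and 3. The NDD libraries were both above the WT libraries, and the WT values differed among themselves more than the nearest NDD and WT libraries did. Fitted as NDD over WT, the log2 fold change came to 1.72 with an SE of 0.64 (unadjusted p 0.0358, and 0.437 after adjustment over all tested genes by edgeR's quasi-likelihood test with the Benjamini-Hochberg method). Dropping WT replicate 1 took it to 2.41, dropping WT replicate 3 to 1.29 and dropping NDD replicate 2 to 1.33.

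Slc9a3 (Entrez gene 105243, chr13:74086255-74169442) was the least abundant member by mean TPM in both groups, at 18.5 and 20.0 TPM in NDD and 14.5, 5.65 and 0.70 TPM in WT replicates 1, 2 and 3. The NDD pair was close together, while WT replicate 3 had only 28 counts of this gene against 473 in WT replicate 1. Its fitted log2 fold change came to 1.52 with an SE of 0.94 (adjusted p 0.509 by edgeR). Dropping WT replicate 1 took it to 2.63, and dropping WT replicate 3 to 0.98.

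Aqp8 (Entrez gene 11833, chr7:123462294-123468003), a water channel of absorptive colonocytes, had 79.3 and 213 TPM in NDD and 58.0, 47.1 and 8.09 TPM in WT replicates 1, 2 and 3. NDD replicate 2 stood well above every other library and WT replicate 3 well below. For Aqp8 the fitted log2 fold change was 2.00 with an SE of 0.81 (unadjusted p 0.0467, adjusted p 0.441 by edgeR). It dropped to 1.05 when NDD replicate 2 was left out and to 1.51 when WT replicate 3 was.

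Car4 (Entrez gene 12351, chr11:84957754-84966054), a carbonic anhydrase anchored on the outer apical membrane, had 14.4 and 47.7 TPM in NDD and 13.4, 9.99 and 1.09 TPM in WT replicates 1, 2 and 3. The groups were only just apart: the lower NDD library was 1.06-fold above the highest WT library in CPM (counts scaled to library size with TMM factors). Genotypes differed by 1.98 on the log2 scale with an SE of 0.94 (adjusted p 0.467 by edgeR). This became 0.81 when NDD replicate 2 was left out and 2.62 when NDD replicate 1 was, and 1.45 when WT replicate 3, with its 17 counts, was left out.

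These 4 apical genes are shown with the 250 bases before their transcription start because they were the members with the largest differences (RefSeq sequence on GRCm38.p6, the assembly behind mm10, 5′ to 3′; capitals mark a motif match). The start used is the one RefSeq's promoter table gives: for Aqp8 and Car4 it is the first base of the gene span above, and for Slc26a3 and Slc9a3 it lies inside the span.
Slc26a3, chr12:31437969-31438218, + strand: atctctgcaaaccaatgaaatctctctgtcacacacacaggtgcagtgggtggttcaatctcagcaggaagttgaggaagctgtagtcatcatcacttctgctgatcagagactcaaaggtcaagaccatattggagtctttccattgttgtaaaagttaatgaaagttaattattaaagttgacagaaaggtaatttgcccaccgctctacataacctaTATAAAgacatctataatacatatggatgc
Slc9a3, chr13:74121163-74121412, + strand: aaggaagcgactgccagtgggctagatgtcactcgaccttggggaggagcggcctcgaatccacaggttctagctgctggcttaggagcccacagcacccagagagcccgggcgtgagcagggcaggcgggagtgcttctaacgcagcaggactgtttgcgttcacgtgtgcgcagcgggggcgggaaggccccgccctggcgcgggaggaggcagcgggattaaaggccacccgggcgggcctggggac
Aqp8, chr7:123462044-123462293, + strand: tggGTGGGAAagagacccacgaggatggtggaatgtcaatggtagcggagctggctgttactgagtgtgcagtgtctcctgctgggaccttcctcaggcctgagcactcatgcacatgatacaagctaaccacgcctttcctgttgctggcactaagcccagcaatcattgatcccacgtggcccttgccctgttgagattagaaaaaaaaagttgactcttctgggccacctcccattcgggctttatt
Car4, chr11:84957504-84957753, + strand: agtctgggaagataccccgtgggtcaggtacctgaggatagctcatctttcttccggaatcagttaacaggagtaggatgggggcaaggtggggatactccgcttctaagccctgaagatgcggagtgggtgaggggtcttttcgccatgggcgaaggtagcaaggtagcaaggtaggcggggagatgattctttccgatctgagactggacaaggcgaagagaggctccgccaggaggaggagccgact
The letters searched, on both strands, were GTGGGAA (the core bound by RBPJ, the DNA-binding partner of Notch), TATAAA (the TATA box), TTTATNG (bound by CDX factors), CAAAGTCCA (by HNF4 factors) and AGATAA (by factors of the GATA family). Aqp8 held GTGGGAA from 247 to 241 bases before its start, and Slc26a3 held TATAAA from 30 to 25 bases before its start. The windows of Slc9a3 and Car4 held none of these letters. Among all 32851 promoter windows of the same length, 5.42% held GTGGGAA and 12.4% held TATAAA, against 9.81% for TTTATNG, 0.384% for CAAAGTCCA and 9.99% for AGATAA. Promoters were matched for 6 members in all, and besides Aqp8 one of the Slc20a1 starts held GTGGGAA. A match of letters is a description and not a bound site.

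The cytosolic carbonic anhydrases were by far the most abundant members. Car1 (Entrez gene 12346, chr3:14766214-14808365) was at 4847 and 2953 TPM in NDD and 3172, 3116 and 2311 TPM in WT replicates 1, 2 and 3. NDD replicate 1 was highest, and NDD replicate 2 lay inside the WT range. Between genotypes Car1 differed by 0.46 on the log2 scale with an SE of 0.24 (adjusted p 0.480 by edgeR), by 0.12 when NDD replicate 1 was left out and by 0.74 when NDD replicate 2 was. Of the 31-base stretches of Car1 transcripts, 20.1% also occur in the annotated gene Gm5843, and Gm5843 was not analysed here, so whether its reads were counted as Car1 is not known.

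Car2 (Entrez gene 12349, chr3:14886269-14900770), the other cytosolic enzyme, had 1410 and 1871 TPM in NDD and 1643, 1728 and 2037 TPM in WT replicates 1, 2 and 3. It was the single member with a negative log2 fold change (-0.10 with an SE of 0.19, adjusted p 0.812 by edgeR), and its highest value was in WT replicate 3, the library in which 7 of the 10 members were lowest. With NDD replicate 1 left out the value was 0.13. Together Car1 and Car2 held 85.3% to 93.4% of the summed TPM of the 10 members. The ratio of Car1 to Car2 was 3.44 and 1.58 in NDD and between 1.13 and 1.93 in WT, so the groups overlapped.

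**Figure D1:**
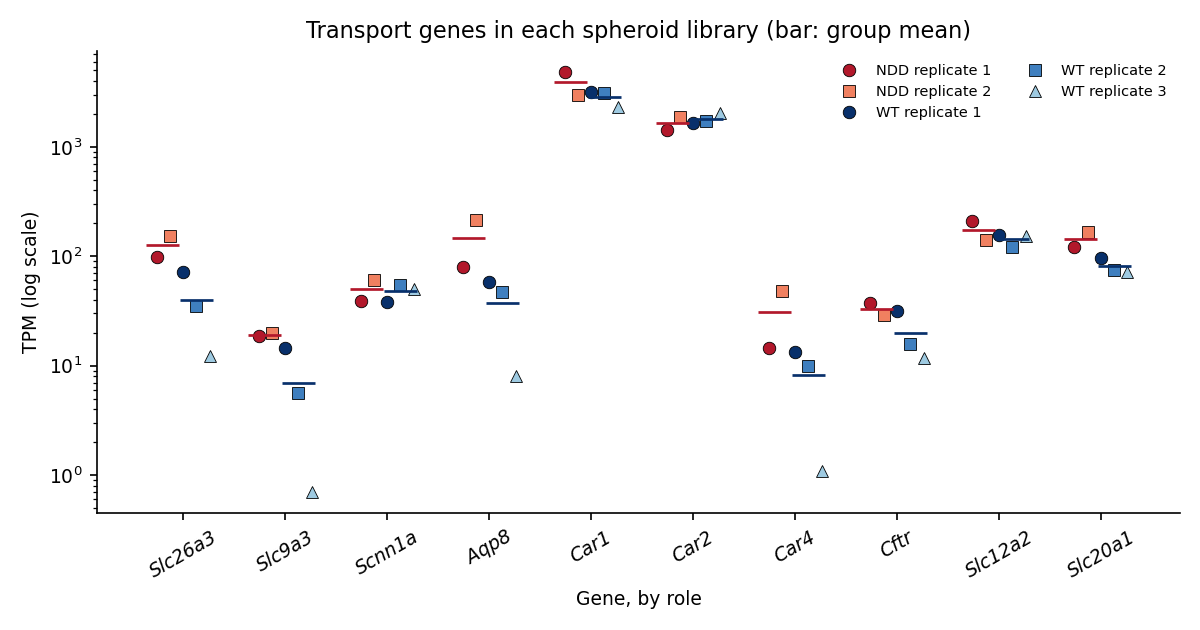
TPM (log scale) of the 10 genes in each of the 5 libraries, with horizontal bars for group means. Slc26a3, Slc9a3, Aqp8, Car4 and Slc20a1 have both NDD libraries above all WT libraries, and WT replicate 3 is lowest for each of them, down to 0.70 TPM for Slc9a3.

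Scnn1a (Entrez gene 20276, chr6:125314271-125344943), the alpha subunit of the epithelial sodium channel, had 39.3 and 61.0 TPM in NDD and 38.6, 54.7 and 50.1 TPM in WT replicates 1, 2 and 3. The groups overlapped, and NDD replicate 2 lay above every WT library. Its log2 fold change of 0.10 with an SE of 0.26 (adjusted p 0.857 by edgeR) became -0.30 with NDD replicate 2 left out and -0.03 with WT replicate 1 left out. The partner subunits were almost unread. Scnn1b had rounded counts of 6 and 2 in NDD and 0 (at 0.03 TPM), 3 and 3 in WT replicates 1, 2 and 3. Scnn1g had 3 and 1 counts in NDD and 0 in each WT library. At 95% confidence a gene with no counts can still stand for up to 3, which is at most 0.156 CPM in the shallowest library (counting error only, since PCR copies are not separate molecules).

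The chloride secretion genes overlapped between genotypes. Cftr (Entrez gene 12638, chr6:18170687-18322770) had 37.2 and 28.8 TPM in NDD and 31.7, 15.9 and 11.9 TPM in WT replicates 1, 2 and 3. WT replicate 1 lay between the NDD libraries, and WT replicates 2 and 3 lay below both. NDD exceeded WT by 0.73 on the log2 scale with an SE of 0.41 (adjusted p 0.484 by edgeR), by 1.24 once WT replicate 1 was left out and by 0.45 once WT replicate 3 was.

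Slc12a2 (Entrez gene 20496, chr18:57878512-57946821) was number 3 of the members by mean TPM in both groups, at 211 and 140 TPM in NDD and 157, 122 and 153 TPM in WT replicates 1, 2 and 3. NDD replicate 2 lay among the WT libraries. Its difference of 0.30 on the log2 scale, with an SE of 0.19 (adjusted p 0.513 by edgeR), shrank to 0.03 when NDD replicate 1 was left out and grew to 0.53 when NDD replicate 2 was.

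Slc20a1 (Entrez gene 20515, chr2:129198773-129211615), a sodium-dependent phosphate importer found in many tissues, had the smallest p-value of the members. It was at 120 and 167 TPM in NDD and 96.2, 75.3 and 72.2 TPM in WT replicates 1, 2 and 3. Unlike the apical genes, it had a narrow WT range, 125 to 163 CPM, and the lower NDD library was 1.25-fold above the highest WT library. Slc20a1 differed by 0.83 on the log2 scale with an SE of 0.20 (unadjusted p 0.00608, adjusted p 0.307 by edgeR). DESeq2, which called 357 genes (2.64% of those tested), gave an adjusted p of 0.0221, and edgeR gave 0.0226 without NDD replicate 1, a fit in which the lone NDD library is assumed to vary like the WT group and in which 1207 genes were called. Without NDD replicate 2 the difference was 0.55 on the log2 scale (adjusted p 0.489 by edgeR). Antisense genes overlap 8.1% (9830144P21Rik) and 5.02% (Gm4430) of the annotated exon bases of Slc20a1. Of its 31-base stretches, matched on either strand, 10.9% (616) occur in another gene. Of these 395 are in 9830144P21Rik, so this share in part counts the same antisense overlap again. Neither antisense gene was analysed here, and as the strand setting of the counting is not given in the sources used here, reads of theirs could have been counted as Slc20a1.

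Across the members, 0 of 10 had an edgeR adjusted p under 0.05, against 12 of 13501 genes tested (0.0889%). DESeq2 called 1 of the 10, and limma on log2(TPM + 1) called 0. An unadjusted edgeR p under 0.05 was found for 3 members (Slc26a3, Aqp8 and Slc20a1) and for 11.2% of all tested genes. The 3 members became 1 with no count filter and without WT replicate 2. They became 4 under the replicate block and without WT replicate 1. In CPM, 5 members had groups that lay apart, all with NDD above WT, while groups lay apart in 32% of the tested genes and NDD was above WT in 15.8%. Permuting log2 CPM (exact test, two-sided) gave p = 0.2 for each of these 5, the smallest p that 2 libraries against 3 allow. The log2 fold change was above 0 in 9 members and in 49.5% of tested genes, and its median was 0.78 over the members and -0.0047 over all tested genes.

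**Figure D2:**
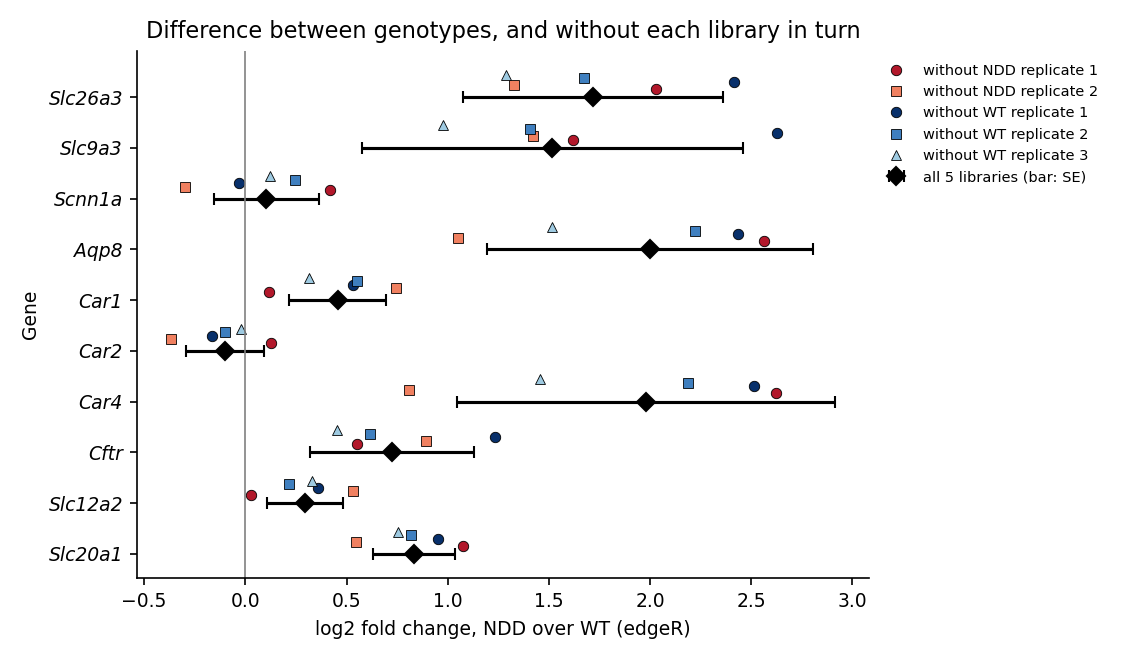
Log2 fold change of NDD over WT for each gene (edgeR), with all 5 libraries (diamond, bar: SE) and with each library left out in turn (coloured points). Aqp8 ranges from 1.05 to 2.56 and Slc9a3 from 0.98 to 2.63, and the points of Car2 and Scnn1a lie on both sides of 0.

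In order of length-corrected level, Car1 and Car2 led in both groups without overlapping each other or the next gene. In WT, Slc12a2 and then Slc20a1 came next, each above its lower neighbour in every library. The levels of Scnn1a, Slc26a3, Aqp8, Cftr, Car4 and Slc9a3 followed, and each of these neighbours overlapped across WT libraries. In NDD, Slc12a2, Aqp8, Slc20a1 and Slc26a3 overlapped as neighbours, and all exceeded Scnn1a, which exceeded Cftr; Cftr, Car4 and Slc9a3 overlapped as neighbours. By mean TPM Aqp8 was number 4 of 10 in NDD and number 7 in WT. The summed level of the 10 members was 6875 and 5654 TPM in NDD and 5296, 5210 and 4658 TPM in WT replicates 1, 2 and 3.

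Ratios within a library compare absorptive with secretory genes without regard to library scaling. They were chosen after their values were seen and are a description. The TPM of Slc26a3 over that of Cftr was 2.66 and 5.35 in NDD and 2.25, 2.23 and 1.04 in WT replicates 1, 2 and 3. NDD replicate 1 was close to WT replicates 1 and 2, and NDD replicate 2 was far above. Slc26a3 over Slc12a2 was 0.469 and 1.10 in NDD and 0.454, 0.290 and 0.080 in WT. Slc9a3 over Scnn1a, the electroneutral against the electrogenic sodium route, was 0.470 and 0.328 in NDD and 0.375, 0.103 and 0.014 in WT, so these groups overlapped.

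**Figure D3:**
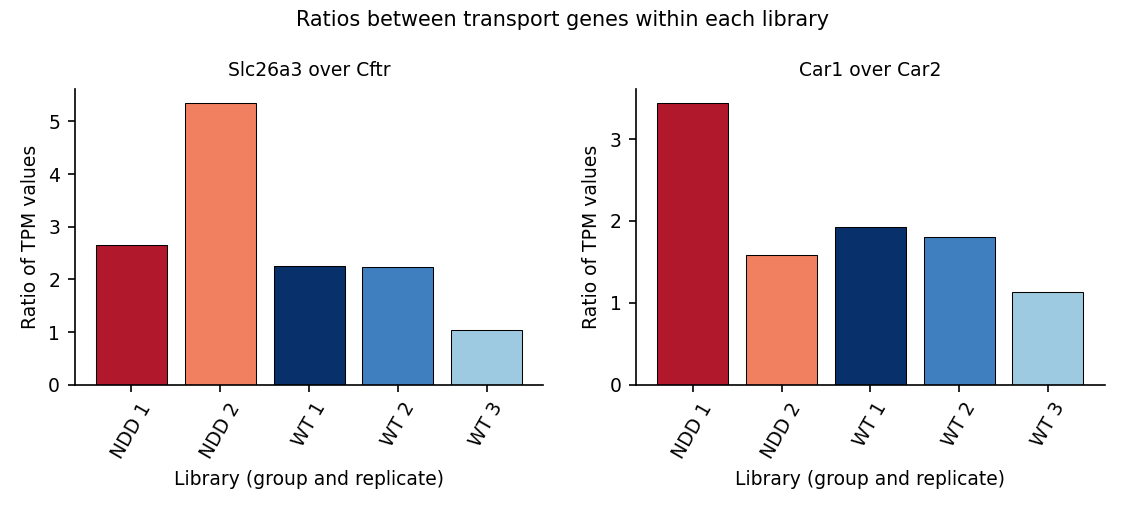
TPM of Slc26a3 over Cftr (left) and of Car1 over Car2 (right), 1 bar per library. The left ratio is highest in NDD replicate 2 (5.35) and lowest in WT replicate 3 (1.04), and the right ratio is highest in NDD replicate 1 (3.44).

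Summed markers of surface colonocytes took the same order over the 5 libraries as the summed apical genes. The 12 markers of that list summed to 9176 and 10270 TPM in NDD and to 6208, 6157 and 3868 TPM in WT replicates 1, 2 and 3, and Slc26a3, Slc9a3, Aqp8 and Car4 together to 211 and 434 TPM in NDD and 157, 98.1 and 22.2 TPM in WT. Lypd8 alone held 6221 and 6899 TPM of the surface sum in NDD and 3787, 4049 and 1933 TPM in WT. With edgeR 0 of the 12 passed the adjusted threshold (0.0889% of all tested genes) and 7 had an unadjusted p under 0.05 (11.2%). DESeq2, which called 2.64% of all tested genes, called Ceacam20 (adjusted p 0.00067), Muc3 (0.0179) and Lypd8 (0.0451) and none of the other surface markers. All 12 had a log2 fold change above 0 (49.5% of all tested genes), with a median of 1.21. Groups lay apart in 9, all with NDD above WT (15.8% of all tested genes), and overlapped for Ceacam1, Emp1 and Plac8. Krt20, a keratin of mature surface cells that is also on the colon epithelium list, was at 56.6 and 114 TPM in NDD and 32.5, 31.9 and 4.64 TPM in WT, again lowest in WT replicate 3. All 10 goblet markers also had a log2 fold change above 0 (median 0.47), and their summed TPM was higher in both NDD libraries than in every WT library. Groups lay apart in 3 of the 10, all with NDD above WT. Over all tested genes groups lay apart in 32%, and with NDD above WT in 15.8%. Of the goblet markers 1, Retnlb, passed with edgeR (adjusted p 0.0197). Of the 9 tested stem markers, 4 had a log2 fold change above 0: Sox9 (0.29), Myb (0.16), Prom1 (0.13) and Smoc2 (0.11). The other 5 were below 0, among them Rnf43 (-0.30) and Znrf3 (-0.21), and the groups overlapped for all of these named genes. The median was -0.21, and 0 stem markers passed with edgeR. Lgr5, Ascl2 and Axin2 were lower in both NDD libraries than in every WT library, unlike the summed stem markers, which overlapped; groups lay apart, in either direction, in 32% of all tested genes. Lgr5, a receptor that marks intestinal stem cells, was at 0.86 and 1.23 TPM in NDD and 3.37, 2.57 and 3.17 TPM in WT, a difference of -2.18 on the log2 scale with an SE of 0.32 (adjusted p 0.119 by edgeR and 4.7e-07 by DESeq2). The stem cell transcription factor Ascl2 differed by -1.56 (adjusted p 0.207 by edgeR and 0.000441 by DESeq2) and the Wnt target Axin2 by -0.53 (0.394 and 0.148). The 10 proliferation markers summed to 1265 and 488 TPM in NDD and to 1339, 1244 and 1389 TPM in WT, a sum that was low in NDD replicate 2 alone. All 10 had a log2 fold change below 0 (median -0.55), as had 6815 of 13501 tested genes, and 0 passed with edgeR. In CPM, groups lay apart in 3 of them, Pcna, Birc5 and Aurkb, with NDD below WT (32% of all tested genes in either direction). In bulk RNA, more cells of a type and more RNA per cell cannot be told apart, and the part that maturation or growth of the cultures plays in the member values was not tested.

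**Figure D4:**
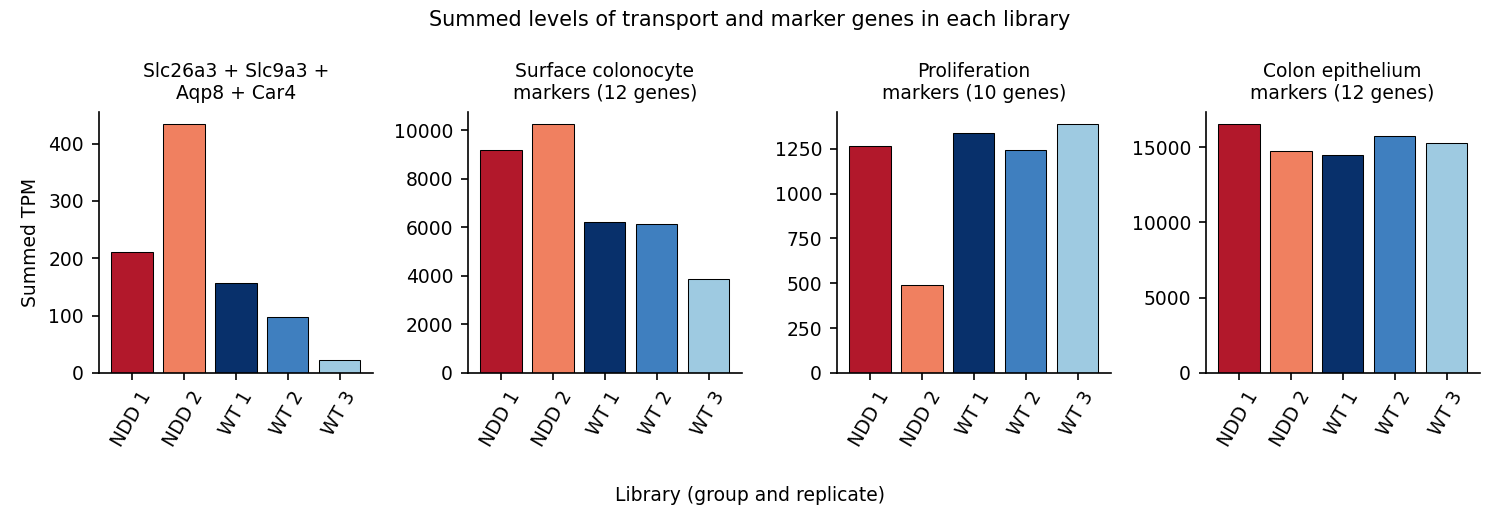
Summed TPM in each library of the 4 apical genes and of the surface colonocyte, proliferation and colon epithelium markers, each on its own scale from 0. The apical genes and surface markers are lowest in WT replicate 3 (22.2 and 3868 TPM), while proliferation markers are low in NDD replicate 2 (488 TPM) and colon epithelium markers stay between 14466 and 16543 TPM.

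Other transport genes were grouped into 10 functional lists of 99 genes, of which 75 were tested. None had an adjusted p under 0.05 with edgeR, 18 had an unadjusted p under 0.05 (16 higher and 2 lower in NDD; 11.2% of all tested genes in either direction), and 48 of 75 had a log2 fold change above 0 (49.5% of all tested genes), with a median of 0.17. Groups lay apart in 22 of the 75, with NDD above WT in 19 (32% and 15.8% of all tested genes). DESeq2, which called 2.64% of all tested genes, called 6 of them: Slc26a2, Atp12a, Best2, Guca2a and Slc5a8 as higher and Fxyd3 as lower.

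Among the 9 tested acid-base and sodium exchangers, 6 were higher and 3 lower (median 0.21). The sulfate and anion exchanger Slc26a2 was at 151 and 219 TPM in NDD and 103, 76.5 and 55.1 TPM in WT, a difference of 1.27 on the log2 scale with an SE of 0.31 (adjusted p 0.296 by edgeR). Slc9a2, the apical NHE2, was at 72.6 and 87.2 TPM in NDD and 57.9, 39.2 and 26.1 TPM in WT (log2 fold change 0.99). The anion exchanger Slc4a2 overlapped (0.21).

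All 6 tested genes of the sodium channel list had a log2 fold change above 0 (median 0.85), including Hsd11b2, which shields the mineralocorticoid receptor from glucocorticoids (0.90), the protease Prss8 (0.29, and 0.019 without NDD replicate 2) and the ubiquitin ligase Nedd4l (0.0063). Of 6 tested ion pump genes 4 were higher (median 0.36). The sodium pump subunit Atp1b1 was at 750 to 1129 TPM, with a log2 fold change of 0.37, which was 0.20 without NDD replicate 2. Fxyd3, a small regulator of that pump, went the other way, at 46.2 and 24.5 TPM in NDD and 105, 117 and 181 TPM in WT, a difference of -1.90 on the log2 scale with an SE of 0.35 (adjusted p 0.193 by edgeR).

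Of 14 chloride channel and secretion genes 9 were higher and 5 lower (median 0.08). The calcium-activated channel Ano1 was at 48.5 and 40.8 TPM in NDD and 51.8, 58.0 and 98.4 TPM in WT (log2 fold change -0.61, and -0.29 without WT replicate 3), and the kinases Wnk1 (-0.07) and Oxsr1 (-0.19) overlapped. Of 7 potassium channel genes 2 were higher and 5 lower (median -0.09), and the 3 most abundant, Kcnk1 (-0.31), Kcnn4 (-0.09) and Kcnq1 (-0.05), overlapped.

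Of the 7 other carbonic anhydrases tested, 3 were higher and 4 lower (median -0.06). Car9, a membrane enzyme known as a hypoxia target, was at 112 and 306 TPM in NDD and 120, 188 and 73.4 TPM in WT (log2 fold change 0.78). Car13 was even across libraries (45.0 to 54.7 TPM, log2 fold change -0.06), and Car12 ranged from 5.79 to 35.3 TPM within WT alone (-0.34). Of 10 other aquaporins 3 could be tested: Aqp4 at 139 to 201 TPM (0.21), Aqp11 at 15.1 and 15.5 TPM in NDD and 8.64, 11.3 and 9.45 TPM in WT (0.67), and Aqp1 at 2.46 to 9.31 TPM (0.09). Aqp2, Aqp5, Aqp6 and Aqp9 had a rounded count of 0 in every library, although Aqp9 was at 0.02 TPM in NDD replicate 1.

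Of 6 phosphate and anion transporters 3 were higher and 3 lower (median 0.08). Slc20a2, the close relative of Slc20a1, was at 24.7 and 22.0 TPM in NDD and 24.0, 20.2 and 27.7 TPM in WT (log2 fold change -0.02), and the phosphate exporter Xpr1 was at 30.6 and 27.8 TPM in NDD and 24.4, 21.9 and 22.2 TPM in WT (0.37). The dicarboxylate carrier Slc13a2 had a log2 fold change of 1.40, which was 0.48 without NDD replicate 2.

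Of 12 scaffold and cyclic GMP genes 8 were higher and 4 lower (median 0.10). Guca2a, which encodes the peptide guanylin, was at 710 and 654 TPM in NDD and 339, 174 and 87.1 TPM in WT replicates 1, 2 and 3, a difference of 1.81 on the log2 scale with an SE of 0.50 (adjusted p 0.370 by edgeR). The apical scaffold genes Ezr (0.16) and Slc9a3r1 (-0.09) overlapped. Of 5 short-chain fatty acid transport genes 4 were higher (median 0.42), among them the monocarboxylate carrier Slc16a1 (0.42) and its chaperone Bsg (0.45). Slc16a3 was at 6.54 and 100.1 TPM in the NDD libraries (0.17).

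**Figure D5:**
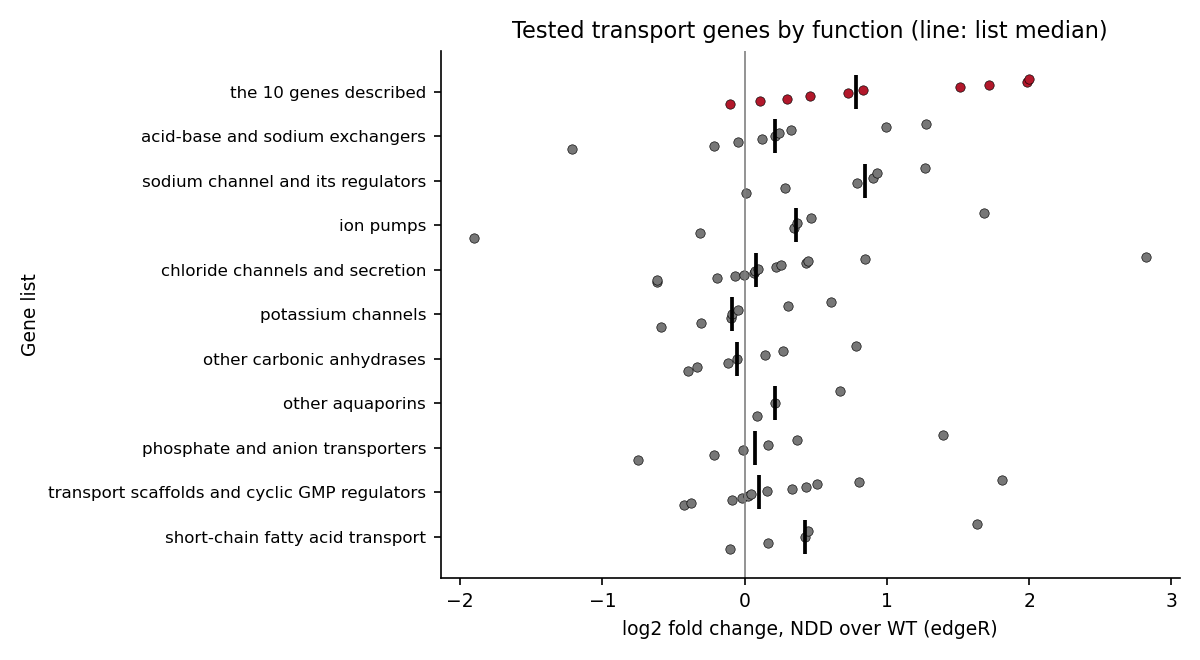
Log2 fold change of NDD over WT for the 10 genes described (red) and for the tested genes of 10 functional lists (grey), with a line at each median. The median is 0.78 for the 10 genes and lies between -0.09 and 0.85 for the other lists.

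The tested genes whose centred log2 CPM over the 5 libraries lay nearest to that of Slc26a3 were Scg5 (mean absolute distance 0.14), Gm12408 (0.14) and Eif4ebp3 (0.19). Scg5 and Gm12408 were at 2.05 TPM or less in every library, and Eif4ebp3, a translation repressor, was at 31.9 and 46.3 TPM in NDD and 23.7, 12.5 and 6.31 TPM in WT. Among the members Aqp8 was nearest to Slc26a3 (0.41), then Slc9a3 (0.51), Cftr (0.55) and Car4 (0.57), while Car2 (1.19) and Scnn1a (1.19) were farthest.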

How the data were processed

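The authors deposited 2 tables of the whole series, each with 32793 gene rows and 1 column per library. The first holds estimated counts per gene, which the authors rounded and did not normalize. The second holds TPM, which the authors corrected for transcript length and scaled to a common total. RSEM, Bowtie2 and mm10 are named in the submitters' processing notes; their settings, the annotation and the handling of strand are not given in the sources used here. The library kit keeps strand and selects mRNA, per the labels' protocols.

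Estimated counts of all 5 libraries were tested with edgeR 4.0.16 in R 4.3.3 (TMM factors, filterByExpr, robust quasi-likelihood test, prior count 0.125), Benjamini-Hochberg over 13501 genes, threshold 0.05. Each SE was approximated from the fold change and its F statistic. Alternatives were RLE factors, other filters, DESeq2 1.42.0, limma 3.58.1 on TPM, the replicate block and leaving out each library. In simulated data of this comparison, 200 of 13287 genes were given a log2 fold change of 2. There edgeR recovered 87% of the 200, and 17 of its 191 calls were false. DESeq2 recovered 93.5%, and 59 of its 246 calls were false. For both tools the false share of calls was above the threshold of 0.05. Aqp8 (2.00) and Car4 (1.98) were fitted near the simulated size but did not pass with edgeR (adjusted p 0.441 and 0.467). Whether the simulated recovery holds for genes that vary as widely between libraries as these members was not tested. Exact permutation tests used scipy 1.17.1. Positions, Entrez numbers and promoters are RefSeq's on GRCm38.p6; shared 31-base stretches and exon overlaps are from GENCODE transcripts of the same assembly.

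The members, lists, motifs and rules were chosen with earlier results of these data known. Named were all members, the 3 most abundant genes of each transport list plus any called, and the 3 genes nearest to Slc26a3, except that some genes of these lists are not reported here; Best2, Atp12a, Slc5a8, Scnn1b, Scnn1g, Aqp2, Aqp5, Aqp6, Aqp9, the ratios and single markers were named after their values were seen.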

Additional observations from a re-analysis of the deposited data

How the results depend on the processing

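The number of members called, 0 with edgeR (3 at an unadjusted p under 0.05), was 1 with DESeq2 (Slc20a1) and 0 to 1 across the fits without a library. It was 0 under RLE factors, both other count filters, the 3 limma fits on TPM and the replicate block. Among all genes, 12 were called, against 357 with DESeq2, 58 with no filter, 4 with at least 10 counts in every library, 33 under the replicate block and 0 to 1207 when a library was left out (0 without WT replicate 1, 1207 without NDD replicate 1). Of the other transport genes, 0 were called (18 at an unadjusted p under 0.05), against 6 with DESeq2, 1 with no filter, 1 (Atp12a) under the replicate block and 0 to 7 when a library was left out. The number of members with groups apart, 5, was 5 to 9 when a library was left out, an alternative chosen after seeing the data that cannot make groups overlap that were apart; the share of all tested genes apart then rose to between 36.2% and 76.6%.

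Leaving out a library took Car2 from -0.37 to 0.13, Scnn1a from -0.30 to 0.42, Nedd4l from -0.085 to 0.097, Wnk1 from -0.13 to 0.010, Kcnq1 from -0.30 to 0.17, Kcnn4 from -0.30 to 0.10, Kcnk1 from -0.87 to 0.11, Car9 from -0.18 to 1.35, Car12 from -1.19 to 0.90, Aqp1 from -1.09 to 0.74, Aqp4 from -0.059 to 0.44, Slc20a2 from -0.099 to 0.086, Slc16a3 from -2.94 to 1.07 and Bsg from -0.23 to 0.90 on the log2 scale. Without a turn of sign, values moved by over 1.5 times for Slc4a2 (0.081 to 0.34), Prss8 (0.019 to 0.51), Atp1b1 (0.20 to 0.52), Ano1 (-0.78 to -0.29), Oxsr1 (-0.36 to -0.037), Car13 (-0.094 to -0.0052), Slc9a3r1 (-0.17 to -0.0036), Ezr (0.025 to 0.28) and genes whose values stand beside them in the text. Signs also turned with the replicate block for Nedd4l (-0.026), Kcnq1 (0.10), Aqp1 (-0.29), Slc20a2 (0.090) and Slc16a3 (-1.20), and on log2(TPM + 1), log2(TPM + 0.1) and unfiltered log2(TPM + 1) for Aqp1 (-0.037, -0.075 and -0.037) and Slc16a3 (-0.65, -0.71 and -0.65). The cause of these changes was not tested. Members other than Car2 and Scnn1a kept their sign in all 13 alternatives.

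Replicate numbers are shared by the groups, with no word in the labels on what they stand for. Deviations from the group mean correlated at 0.013 and 0.30 between same-numbered libraries, too little to show pairing with 2 pairs. The deviations of the 2 NDD libraries are each other's negatives, so these correlations are not separate values. The replicate block gave the counts above. The block moved the log2 fold change by over 1.5 times, without a turn of sign, for the members Car4 (1.98 to 1.21), Aqp8 (2.00 to 1.33), Car1 (0.46 to 0.28) and Car2 (-0.10 to -0.041) and for Ano1 (-0.61 to -0.29), Prss8 (0.29 to 0.19), Car9 (0.78 to 0.34), Car12 (-0.34 to -0.57), Car13 (-0.056 to -0.0042) and Bsg (0.45 to 0.20). Among the 10 members, Car4 (17) and Slc9a3 (28) had the fewest counts in a library, WT replicate 3, and the largest SEs (0.94 each).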
